A study of Mus musculus with 24 samples.

Results

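Matrix metalloproteinases (MMPs), ADAMTS proteases, and tissue inhibitors of metalloproteinases (TIMPs) were followed across 4 stimulation conditions of optogenetic C2C12 muscle. Members were taken by gene name, as every Mmp, numbered Adamts, and Timp1 to Timp4 gene. Of the 56941 genes measured, 46 were members, with 23 MMP, 19 ADAMTS, and 4 TIMP genes. Of these, 20 had enough counts to be tested (7 MMP, 9 ADAMTS, and 4 TIMP genes).

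MMPs and ADAMTS proteases are secreted or membrane-bound enzymes that cut the matrix around cells, and both families hold a zinc ion in the active site with histidine side chains. MMPs are known for cutting collagens, gelatin, and laminins, while many ADAMTS enzymes cut the large proteoglycans aggrecan and versican or trim the ends of procollagens. TIMPs block these enzymes, and in muscle the balance between both sides is known to matter for myoblast migration, fusion, and remodeling of the basement membrane.

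All tissues came from a single C2C12 mouse myoblast line that carries the blue light-gated channel ChR2(H134R) fused to tdTomato. Cells were grown on a grooved fibrin hydrogel and differentiated for around 2 weeks in medium with horse serum, insulin-like growth factor 1, and aminocaproic acid, an agent that slows the breakdown of fibrin by plasmin. Tissues were left unstimulated (control) or were stimulated with blue light for 60 min a day at 1, 4, or 10 Hz, with 6 biological replicates of each condition and 24 libraries in all. The control tissues also twitched spontaneously, so they were not resting muscle. Because the tissues were sequenced whole, fewer cells of a type and less RNA per cell cannot be told apart.

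Libraries held between 8052369 and 18159144 estimated counts. All 10 markers of differentiated muscle were tested, while 0 of 5 endothelial markers, 1 of 6 macrophage markers, and 1 of 5 fat cell markers passed the filter on low counts. The sample labels state that low-input samples were ribodepleted instead of poly(A)-selected, without naming them. Counts of Rn7sk, a nuclear RNA without a poly(A) tail, lay at 2.22 to 8.13 counts per 1000000 (CPM) in control tissues, 4.56 to 29.7 at 1 Hz, 6.09 to 44.6 at 4 Hz, and 3.19 to 11.0 at 10 Hz. Mitochondrial genes took up to 2.72% of the counts in a control library and up to 8.90% in a 4 Hz library. The 7 libraries with the most RNA lacking a poly(A) tail were 4 at 1 Hz and 3 at 4 Hz. They were picked as lying above every control and 10 Hz library. The margin was small, with a summed 14.1 CPM of such RNA in 1 Hz replicate 6 and 13.2 CPM in 10 Hz replicate 3. Fits without the 7 libraries hold fewer libraries at 1 and 4 Hz. Values from these fits were taken for members only, and are given where a change no longer passed.

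The active-site codons of 9 tested enzymes are shown because they mark what the families share and where the ADAMTS members that responded differ from each other. They were read 5′ to 3′ from the coding sequence of the main GENCODE M39 transcript on the mouse genome GRCm39. Capitals mark the codons of the 3 zinc-binding histidines and, between the last pair of them, the codon that is glycine in most members.
Adamts1: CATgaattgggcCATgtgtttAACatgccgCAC
Adamts15: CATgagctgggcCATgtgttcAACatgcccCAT
Adamts4: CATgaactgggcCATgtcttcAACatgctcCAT
Adamts5: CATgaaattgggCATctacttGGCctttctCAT
Adamts2: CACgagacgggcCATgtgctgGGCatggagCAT
Mmp2: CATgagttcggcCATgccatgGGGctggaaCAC
Mmp11: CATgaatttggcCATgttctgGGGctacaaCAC
Mmp14: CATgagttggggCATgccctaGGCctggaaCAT
Mmp15: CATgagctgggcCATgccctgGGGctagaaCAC

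The site was searched in the main transcript with only glycine or asparagine allowed at the codon between the last pair of histidines. It was found in 23 of 23 MMP genes, in 18 of 19 ADAMTS genes, and in 0 of 4 TIMP genes, whose products carry no protease domain. A site with another residue there would be missed, so the lack of a match in Adamts8 does not show that it lacks a zinc site. The codon in capitals between the histidines was glycine in all 23 MMP genes and in 13 ADAMTS genes, and asparagine in 5 ADAMTS genes, among them Adamts1, Adamts4, and Adamts15. Over these 33 bases, Adamts15 and Adamts4 were 90.9% identical and Adamts1 and Adamts15 were 84.8% identical, while Adamts1 and Adamts5 shared 60.6%. Adamts5 has the glycine codon although its product shares the cutting of aggrecan and versican with those of the other 3. Members with like sites differed in direction, as Adamts1 was higher and Adamts4 and Adamts15 were lower at 1 Hz, as given for each gene further on.

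Levels were compared between genes in transcripts per 1000000 (TPM), which corrects for transcript length. In the unstimulated controls, Timp2 was the highest member at 484 ± 30.9 TPM (SD, n = 6), with 442 TPM in the lowest library and 528 TPM in the highest. Mmp2, which encodes gelatinase A, followed at 322 ± 18.02 TPM, and Timp1 at 306 ± 19.6 TPM. The library ranges of Mmp2 and Timp1 overlapped, so that their order was not set apart by the spread, while Timp2 lay above both without overlap. Timp3 stood at 195 ± 36.5 TPM and Mmp14, a membrane-type MMP that activates the Mmp2 proenzyme, at 49.1 ± 6.93 TPM. These 5 genes were set apart from the rest of the family by level. Mmp11 (stromelysin-3) was next at 22.99 ± 2.30 TPM, and the highest ADAMTS gene was Adamts1 at 14.2 ± 2.98 TPM, with a range that overlapped those of Mmp19 and Adamts6. The remaining tested members lay between 0.354 TPM (Adamts15) and 15.2 TPM (Mmp19). Timp4, a TIMP known for its expression in heart and muscle, stood at only 0.392 ± 0.222 TPM.

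**Figure D1:**
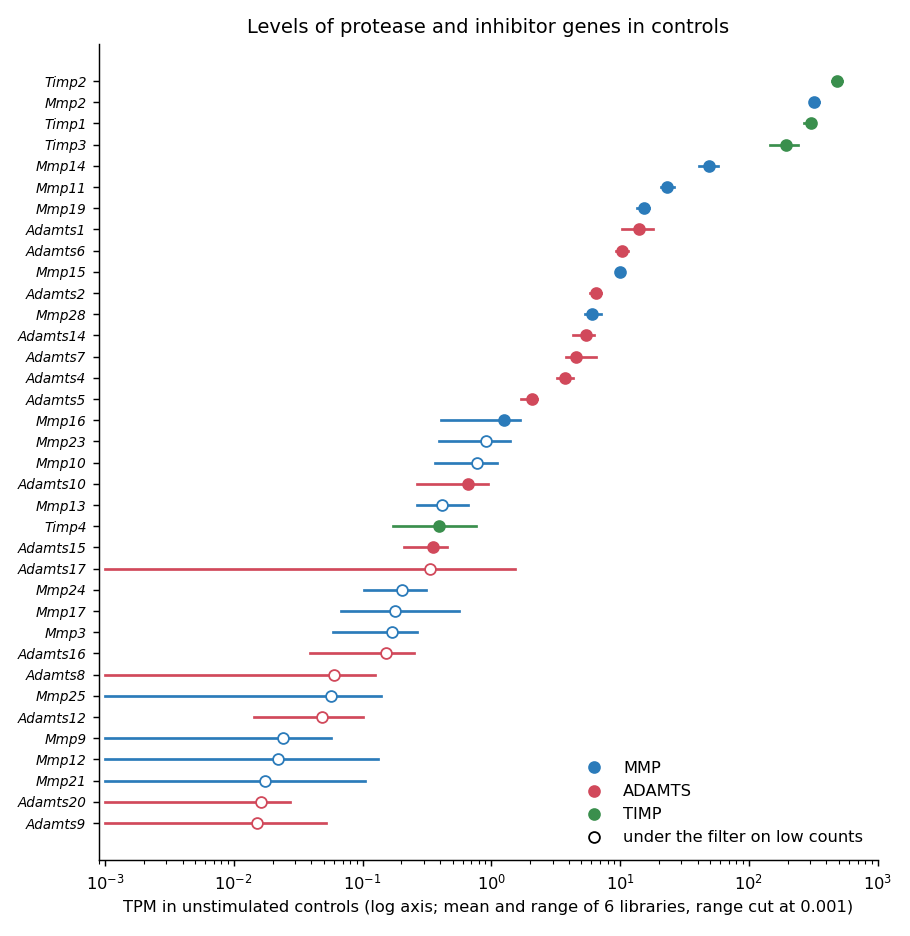
TPM of each member in the 6 unstimulated control libraries on a log axis, with the mean as a point and the range as a line, and members without a count in control tissues left out. Timp2, Mmp2, Timp1, and Timp3 stood above 100 TPM, and members under the filter on low counts (open points) had means below 1 TPM.

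By a plain level rule, 18 members reached 1 TPM in at least 6 of the 24 libraries and 31 reached 0.1 TPM. No count was found in any library for 8 members, which were Mmp1a, Mmp1b, Mmp7, Mmp8, Mmp20, Mmp27, Adamts3, and Adamts19. Another 18 members had counts but fell under the filter, with totals of 2 to 199 estimated counts over all libraries. Among these, Mmp13 (collagenase-3) had 199 counts in 24 libraries, Mmp10 had 168 counts in 24, Mmp3 (stromelysin-1) had 62.5 counts in 23, and Mmp9 (gelatinase B) had 16 counts in 12. Mmp23, at 0.881 TPM on average, was the highest of them, and Mmp17 (160 counts), Mmp24 (159 counts), and Adamts16 (145 counts) were also counted in all 24 libraries. The rest of this class were Mmp25, Mmp12, Mmp21, Adamts8, Adamts9, Adamts12, Adamts13, Adamts17, Adamts18, and Adamts20, with 67 counts or fewer. Thus among the gelatinases the muscle transcribed Mmp2 in abundance, while Mmp9 was close to the floor of detection. Mean CPM in control tissues and at 1, 4, and 10 Hz was 0.683, 0.802, 0.944, and 0.535 for Mmp13 and 0.0491, 0.122, 0.0488, and 0.0290 for Mmp9, and neither was tested.

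Many of the near-silent members sit together on chromosome 9, where Mmp13, Mmp12, Mmp1b, Mmp3, Mmp1a, Mmp10, Mmp8, Mmp27, Mmp20, and Mmp7 follow each other. All of them were under the filter. The AP-1 motif TGANTCA, searched on both strands in the 250 bases before the transcription start, was present in 10 of 26 members under the filter (Mmp1a, Mmp1b, Mmp3, Mmp7, Mmp9, Mmp10, Mmp12, Mmp13, Mmp20, and Adamts3) and in 2 of 20 tested members (Mmp19 and Mmp28), against 6.17% of 21770 protein-coding genes. The cAMP-response motif TGACGTCA was found in 0 of 46 members, against 1.70% of genes, and the E-box CAGCTG in 2 of 20 tested members, against 11.9%.

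In response to stimulation, the largest change among the 20 tested members was that of Adamts1, which rose 2.48-fold at 1 Hz and 3.05-fold at 4 Hz. A gene was called changed when its Benjamini-Hochberg adjusted p was below 0.05 (edgeR, quasi-likelihood) and its log2(fold change) lay beyond 0.5 in either direction. At 1 Hz, 6 of 20 tested members (30%) were changed, against 14.9% of all tested genes, with Adamts1, Adamts5, and Mmp11 higher and Adamts4, Adamts15, and Mmp15 lower. At 4 Hz, 5 of 20 (25%) were changed, close to the 25.1% of all tested genes, with Adamts1, Adamts5, Mmp11, and Timp4 higher and Adamts15 lower. At 10 Hz, 0 of 20 members were changed by edgeR and 0 by DESeq2, with 3 members at an unadjusted p under 0.05 in edgeR, where 0.0376% of all tested genes were changed. These 3 comparisons share their control libraries and are not independent of each other.

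Without the threshold on fold change, 10 members passed at 1 Hz (6 higher and 4 lower), against 37.3% of all genes, and 13 passed at 4 Hz (10 higher and 3 lower), against 51.4%. At 10 Hz, no member passed, and 0.0376% of genes did. In terms of single libraries, all 6 libraries at 1 Hz lay above every control for 3 members and below every control for 1, where 14.1% of all genes did not overlap. At 4 Hz, 8 members lay wholly above the controls and 1 below, against 27.6% of genes, and at 10 Hz Mmp2 lay above them, against 1.64%. The median log2(fold change) of the 20 tested members was 0.14 with 1 Hz, 0.25 with 4 Hz, and 0.15 with 10 Hz stimulation, beside 0.04, 0.06, and 0.01 over all genes.

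The direction of these calls rested in part on the scale. Of all changed genes, 48.2% were higher at 1 Hz and 51.1% at 4 Hz. On log2(TPM + 1) values, which were not rescaled between libraries as the counts were, these shares were 10.7% and 9.60%. The median of all genes moved to −0.14 and −0.21. On that scale 1 member was higher at each of 1 and 4 Hz, which was Adamts1, and 2 were lower, Adamts4 and Mmp15 at 1 Hz and Mmp15 and Timp3 at 4 Hz. Adamts5 and Mmp11 had positive log2(fold change) values on it that did not pass both thresholds.

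**Figure D2:**
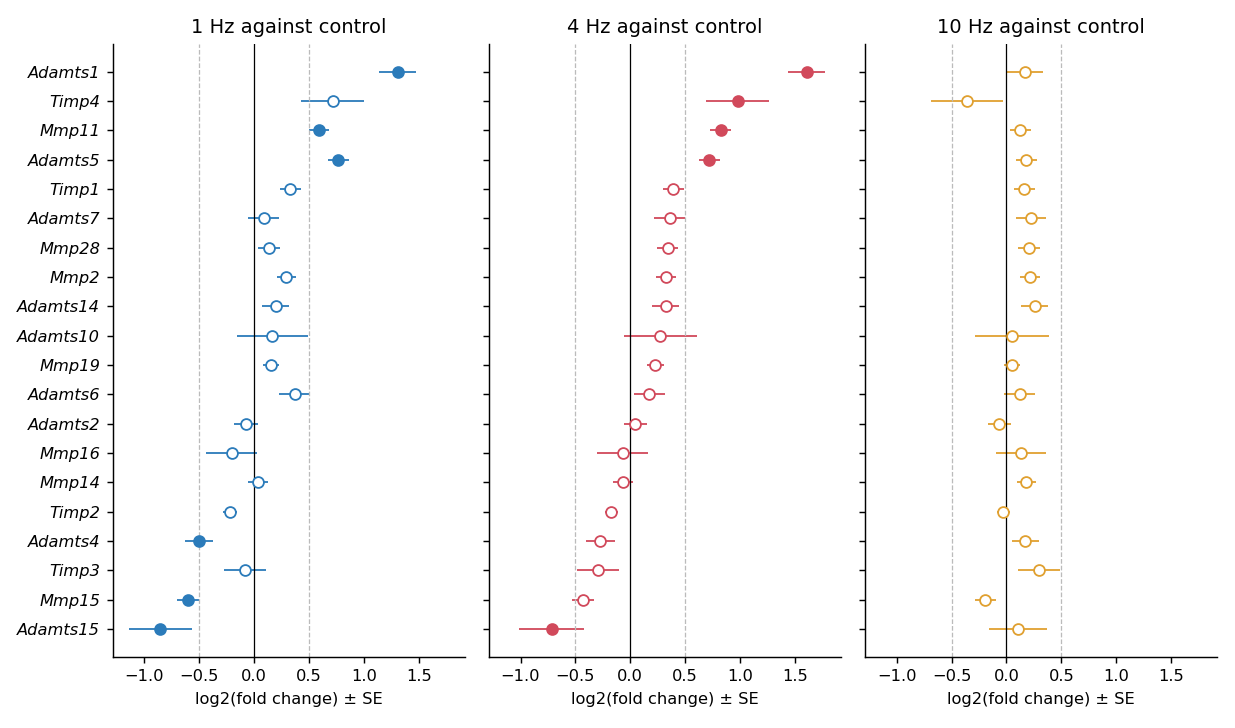
Log2(fold change) of the 20 tested members at 1, 4, and 10 Hz against control, with the standard error (SE) as a line. Filled points were changed at an adjusted p under 0.05 and beyond the dashed lines at 0.5, and all points at 10 Hz are open.

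Among the proteoglycan-cutting ADAMTS genes, Adamts1 and Adamts5 rose at 1 and 4 Hz, Adamts15 fell at both, and Adamts4 fell at 1 Hz. Adamts1 encodes a secreted protease of versican and aggrecan. In the controls it ranged from 30.6 to 57.5 CPM with a median of 44.2 CPM. At 1 Hz it ranged from 83.7 to 134 CPM (median 115) and at 4 Hz from 115 to 163 CPM (median 132). Every library at 1 and 4 Hz lay above every control, while the 10 Hz libraries, at 32.3 to 63.3 CPM (median 51.8), overlapped the controls, with 3 of 6 above every control. The log2(fold change) was 1.31 ± 0.17 (SE, n = 6 and 6) at 1 Hz (edgeR, adjusted p = 2.6e-06) and 1.61 ± 0.17 at 4 Hz (edgeR, adjusted p = 8.7e-08). At 10 Hz it was 0.17 ± 0.17 (edgeR, adjusted p = 0.895). Its share of the summed ADAMTS TPM went from 29.1% ± 4.05 (SD, n = 6) in control tissues to 47.7% ± 4.66 at 1 Hz and 52.8% ± 2.90 at 4 Hz, and was 29.7% ± 6.15 at 10 Hz.

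Adamts5 encodes the main aggrecanase of mouse cartilage and also cuts versican. Its control libraries lay between 12.3 and 15.9 CPM (median 15.02). The 1 Hz libraries lay between 22.1 and 25.9 CPM (median 25.2) and the 4 Hz libraries between 19.8 and 27.4 CPM (median 23.6). Neither group overlapped the controls, and at 10 Hz the range of 13.9 to 19.0 CPM (median 16.4) did. Adamts5 was higher by 0.77 ± 0.09 on the log2 scale at 1 Hz (edgeR, adjusted p = 8.3e-07) and by 0.72 ± 0.09 at 4 Hz (edgeR, adjusted p = 9.1e-07), and the difference at 10 Hz was 0.18 ± 0.09 (edgeR, adjusted p = 0.653). On log2(TPM + 1) values the difference was 0.40 at 1 Hz (limma, adjusted p = 0.017) and 0.27 at 4 Hz (limma, adjusted p = 0.071).

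Adamts1 and Adamts5 are neighbors, in the same orientation and 53051 bases apart on chromosome 16. On GRCm39, Adamts1 spans chr16:85590579-85600009 on the minus strand. As Adamts1 had the largest change of the family, the 250 bases before its start are shown, with the TATA box TATAAA in that window. Searched on both strands, it was found in 2 of 20 tested members, in 10 of 26 members under the filter, and in 11.9% of protein-coding genes. The window is chr16:85600010-85600259, printed on the strand of the gene with the TATA box in capitals.
Adamts1: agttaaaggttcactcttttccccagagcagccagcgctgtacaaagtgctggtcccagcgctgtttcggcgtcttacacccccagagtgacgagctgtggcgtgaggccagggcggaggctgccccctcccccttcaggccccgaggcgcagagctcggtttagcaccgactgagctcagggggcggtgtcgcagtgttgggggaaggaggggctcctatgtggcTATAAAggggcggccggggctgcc

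This window is 64.8% G and C and does not hold the AP-1, cAMP-response, or E-box motif. Neither Adamts1 nor Adamts5 overlaps a gene on the opposite strand.

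Adamts15 and Adamts4 moved the other way. Adamts15, which encodes a versican-cutting protease known from developing muscle, had 0.838 to 1.69 CPM in control tissues (median 1.42). It had 0.553 to 1.04 CPM at 1 Hz (median 0.679) and 0.418 to 1.40 CPM at 4 Hz (median 0.778). At 10 Hz it spread from 0.783 to 2.37 CPM (median 1.17), the widest of the 4 groups. All groups overlapped with the controls. The log2(fold change) was −0.85 ± 0.29 at 1 Hz (edgeR, adjusted p = 0.022) and −0.72 ± 0.29 at 4 Hz (edgeR, adjusted p = 0.044), and 0.10 ± 0.27 at 10 Hz (edgeR, adjusted p = 0.982). These calls rest on 291 estimated counts in all. Most libraries that took Adamts15 over the filter on low counts were control and 10 Hz libraries, where it was higher. Without the 7 libraries with the most RNA lacking a poly(A) tail, the values were −1.13 (edgeR, adjusted p = 0.122) and −0.66 (edgeR, adjusted p = 0.181). The call at 1 Hz was also lost without control replicate 4 (edgeR, adjusted p = 0.051) or 5 (edgeR, adjusted p = 0.051), and the call at 4 Hz without control replicate 3, 4, 5, or 6 or without 4 Hz replicate 2, 3, 4, or 6 (edgeR, adjusted p of 0.059 to 0.102). The 4 Hz call was lost as well with upper-quartile factors (−0.68, edgeR, adjusted p = 0.051) and with no filter on low counts (−0.76, edgeR, adjusted p = 0.070).

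Adamts4 encodes an aggrecanase. It lay between 8.62 and 12.3 CPM in control tissues (median 10.1), between 5.99 and 8.90 CPM at 1 Hz (median 7.34), between 5.93 and 11.1 CPM at 4 Hz (median 8.74), and between 9.51 and 13.3 CPM at 10 Hz (median 11.8). At 1 Hz, 5 of 6 libraries lay below every control. It was lower by 0.50 on the log2 scale at 1 Hz (log2(fold change) −0.50 ± 0.13, edgeR, adjusted p = 0.0036), at the edge of the fold threshold, and the differences at 4 and 10 Hz were −0.27 ± 0.13 (edgeR, adjusted p = 0.080) and 0.17 ± 0.13 (edgeR, adjusted p = 0.813). Without the 7 libraries the 1 Hz value was −0.49 (edgeR, adjusted p = 0.082), and without control replicate 4 or 5 or without 1 Hz replicate 5 or 6 it lay between −0.45 and −0.49, under the fold threshold. It also fell under that threshold with upper-quartile factors (−0.482) and with only the 2 groups in the fit (−0.499).

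The other ADAMTS genes were not changed by both thresholds. Adamts2 and Adamts14 encode procollagen N-proteinases, Adamts7 cuts cartilage oligomeric matrix protein, and Adamts6 and Adamts10 are linked to fibrillin microfibrils. Adamts14 and Adamts7 passed the adjusted p at 4 Hz only with a log2(fold change) of 0.32 and 0.36, and Adamts6 passed it at 1 Hz with 0.37. Adamts2 ranged from −0.07 to 0.05 on the log2 scale across the 3 frequencies and Adamts10 from 0.05 to 0.27, and no comparison of these genes with the controls passed.

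**Figure D3:**
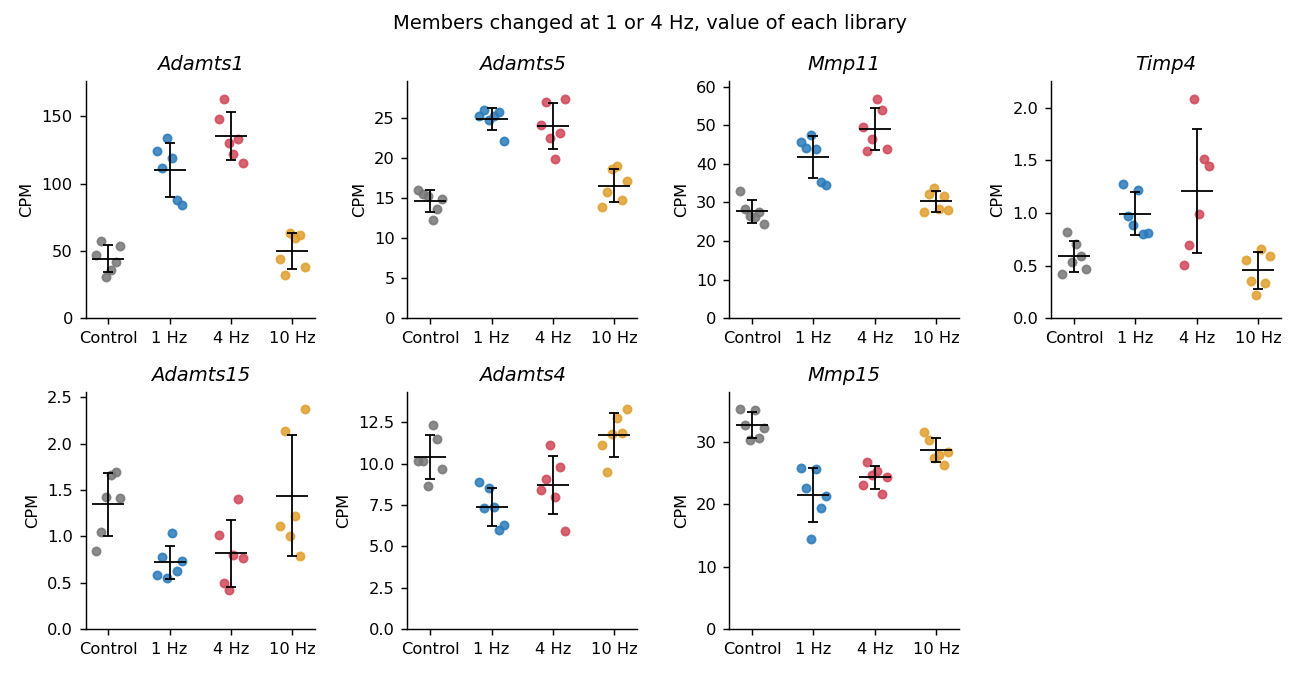
CPM of the 7 members that were changed at 1 or 4 Hz, with a point for each library and the mean ± SD of 6 libraries as bars, on axes from 0. Adamts1 at 1 Hz (83.7 to 134 CPM) and 4 Hz (115 to 163 CPM) lay above all controls, and its 10 Hz libraries lay within 32.3 to 63.3 CPM.

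Among the MMPs, Mmp11 rose at 1 and 4 Hz and Mmp15 fell at 1 Hz, while the abundant Mmp2 and Mmp14 stayed within the fold threshold. Mmp11 encodes stromelysin-3, which is activated inside the cell by furin and is known for cutting serpins and collagen VI rather than the classic MMP substrates. It lay between 24.5 and 33.03 CPM in control tissues (median 27.0). The range was 34.5 to 47.6 CPM at 1 Hz (median 43.9) and 43.4 to 56.9 CPM at 4 Hz (median 48.0). All libraries at both frequencies lay above the controls, and those at 10 Hz (27.6 to 33.8 CPM, median 30.1) did not. The log2(fold change) was 0.59 ± 0.09 at 1 Hz (edgeR, adjusted p = 2.6e-05), 0.82 ± 0.09 at 4 Hz (edgeR, adjusted p = 1.6e-07), and 0.13 ± 0.09 at 10 Hz (edgeR, adjusted p = 0.827). On log2(TPM + 1) values it was 0.44 (limma, adjusted p = 0.058) and 0.41 (limma, adjusted p = 0.054) at 1 and 4 Hz. Mmp11 overlaps Chchd10 on the opposite strand, and Chchd10 was at 39.1 CPM in control tissues and 47.1 CPM at 4 Hz (edgeR, adjusted p = 0.220).

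Mmp15 encodes a membrane-type MMP. Its libraries lay between 30.3 and 35.3 CPM in control tissues (median 32.5), 14.4 and 25.9 CPM at 1 Hz (median 21.9), 21.6 and 26.8 CPM at 4 Hz (median 24.6), and 26.4 and 31.6 CPM at 10 Hz (median 28.2). All libraries at 1 and 4 Hz lay below every control, as did 5 of 6 at 10 Hz. It was changed by −0.60 ± 0.10 on the log2 scale at 1 Hz (edgeR, adjusted p = 4.5e-05). At 4 Hz the difference of −0.43 ± 0.10 passed the adjusted p (edgeR, adjusted p = 9.3e-04) but not the fold threshold, and at 10 Hz it was −0.19 ± 0.10 (edgeR, adjusted p = 0.644). On log2(TPM + 1) values the 4 Hz difference was −0.67 (limma, adjusted p = 1.1e-04) and passed both.

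Mmp2 encodes the gelatinase that cuts denatured collagen and collagen IV of the basement membrane. It lay between 528 and 567 CPM in control tissues (median 553) and ranged from 509 to 813 CPM at 1 Hz (median 692), from 598 to 757 CPM at 4 Hz (median 695), and from 577 to 693 CPM at 10 Hz (median 636). All 4 and 10 Hz libraries lay above the controls, although the differences were small. Its log2(fold change) was 0.29 ± 0.09 at 1 Hz (edgeR, adjusted p = 0.011), 0.32 ± 0.09 at 4 Hz (edgeR, adjusted p = 0.0033), and 0.21 ± 0.09 at 10 Hz (edgeR, adjusted p = 0.512). In TPM the rise at 4 Hz was not seen, with 322 ± 18.02 TPM in control tissues and 327 ± 60.7 TPM at 4 Hz. The difference on log2(TPM + 1) values was −0.0017 (limma, adjusted p = 0.993), where the median of all genes was −0.21.

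Mmp14 lay between 65.4 and 89.0 CPM in control tissues (median 77.9), 64.7 and 95.9 CPM at 1 Hz (median 79.9), 68.5 and 80.4 CPM at 4 Hz (median 72.6), and 79.8 and 95.5 CPM at 10 Hz (median 87.7). The groups overlapped at all frequencies. Its log2(fold change) was 0.04 ± 0.09 at 1 Hz (edgeR, adjusted p = 0.761), −0.07 ± 0.09 at 4 Hz (edgeR, adjusted p = 0.538), and 0.18 ± 0.09 at 10 Hz (edgeR, adjusted p = 0.623), and the sign at 1 Hz turned on log2(TPM + 1) values, to −0.17 (limma, adjusted p = 0.399). On that scale the 4 Hz difference was −0.39 and passed the adjusted p (limma, adjusted p = 0.029) but not the fold threshold.

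The other tested MMPs were Mmp16, a membrane-type MMP, Mmp19, and Mmp28 (epilysin), with log2(fold change) values from −0.20 to 0.34 across the 3 frequencies. Mmp19 and Mmp28 passed the adjusted p at 4 Hz with 0.23 and 0.34 on the log2 scale, and all 6 libraries of each lay above the controls. Mmp19 overlaps Tmem198b on the opposite strand, which was also higher at 4 Hz (log2(fold change) 0.56, edgeR, adjusted p = 6.0e-04), and counting by strand is not stated.

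**Figure D4:**
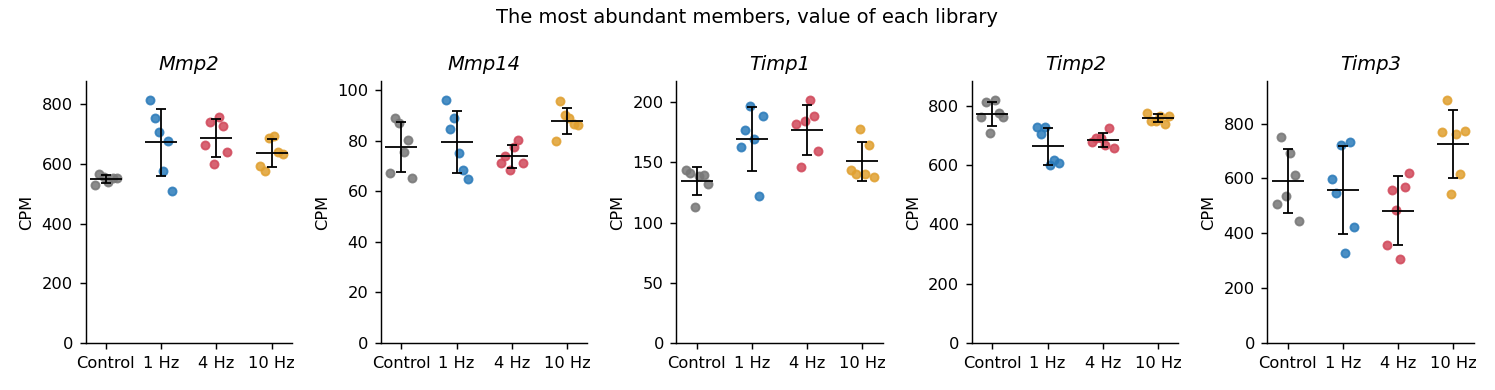
CPM of the 5 most abundant members, with a point for each library and the mean ± SD of 6 libraries as bars, on axes from 0. The groups overlapped for Mmp14 and Timp3, and the 4 Hz libraries of Mmp2 (598 to 757 CPM) lay above the controls (528 to 567 CPM).

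Among the inhibitors, Timp4 was changed at 4 Hz, and the abundant Timp1, Timp2, and Timp3 stayed within the fold threshold. Timp1, the soluble inhibitor that is known to be inducible, lay between 113 and 144 CPM in control tissues (median 139), 122 and 196 CPM at 1 Hz (median 173), 146 and 201 CPM at 4 Hz (median 183), and 138 and 178 CPM at 10 Hz (median 142). Every 4 Hz library lay above the controls. On the log2 scale it differed by 0.33 ± 0.10 at 1 Hz (edgeR, adjusted p = 0.0098), 0.39 ± 0.10 at 4 Hz (edgeR, adjusted p = 0.0017), and 0.16 ± 0.10 at 10 Hz (edgeR, adjusted p = 0.729). Without the 7 libraries with the most RNA lacking a poly(A) tail, Timp1 was at 0.08 at 1 Hz (edgeR, adjusted p = 0.692) and 0.26 at 4 Hz (edgeR, adjusted p = 0.051). In TPM, Timp1 was at 306 ± 19.6 in control tissues and 320 ± 37.8 at 4 Hz, and the difference on log2(TPM + 1) values was 0.11 at 1 Hz (limma, adjusted p = 0.405) and 0.06 at 4 Hz (limma, adjusted p = 0.651). Timp1 overlaps Syn1 on the opposite strand, whose log2(fold change) at 4 Hz was 0.41 (edgeR, adjusted p = 0.023).

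Timp2 takes part in the activation of the Mmp2 proenzyme by Mmp14, apart from its role as an inhibitor. It lay between 707 and 818 CPM in control tissues (median 769), 599 and 730 CPM at 1 Hz (median 660), 657 and 726 CPM at 4 Hz (median 684), and 739 and 776 CPM at 10 Hz (median 757). At 1 Hz, 4 of 6 libraries lay below every control, and at 4 Hz 5 of 6 did. The log2(fold change) of −0.22 ± 0.06 at 1 Hz (edgeR, adjusted p = 0.0058) and −0.17 ± 0.06 at 4 Hz (edgeR, adjusted p = 0.018) passed the adjusted p but not the fold threshold, and the value at 10 Hz was −0.03 ± 0.06 (edgeR, adjusted p = 0.973). Without the 7 libraries the values were −0.19 at 1 Hz (edgeR, adjusted p = 0.076) and −0.19 at 4 Hz (edgeR, adjusted p = 0.023).

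Timp3 is the inhibitor that binds to the matrix and also blocks ADAM and ADAMTS enzymes. It spread widely in every group, with 445 to 750 CPM in control tissues (median 573), 327 to 732 CPM at 1 Hz (median 572), 305 to 621 CPM at 4 Hz (median 521), and 542 to 885 CPM at 10 Hz (median 767). The groups overlapped. Differences from the controls were −0.08 ± 0.19, −0.29 ± 0.19, and 0.30 ± 0.19 on the log2 scale at 1, 4, and 10 Hz (edgeR, adjusted p = 0.760, 0.211, and 0.759). Without the 7 libraries the value was 0.18 at 1 Hz and −0.05 at 4 Hz. On log2(TPM + 1) values the 4 Hz difference was −0.63 (limma, adjusted p = 0.042).

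Timp4 was rare, with 213 estimated counts in all. Only libraries at 1 and 4 Hz took it over the filter on low counts, and no control or 10 Hz library reached the level the filter asks for. It was thus tested because of the groups where it was high, which limits its calls against control and against 10 Hz. With no filter on low counts, the call at 4 Hz was kept. It lay between 0.419 and 0.817 CPM in control tissues (median 0.562), 0.805 and 1.27 CPM at 1 Hz (median 0.929), 0.509 and 2.09 CPM at 4 Hz (median 1.22), and 0.222 and 0.658 CPM at 10 Hz (median 0.457). At 1 and at 4 Hz, 4 of 6 libraries lay above every control. On the log2 scale the difference was 0.72 ± 0.29 at 1 Hz (edgeR, adjusted p = 0.051), 0.98 ± 0.29 at 4 Hz (edgeR, adjusted p = 0.0062), and −0.36 ± 0.33 at 10 Hz (edgeR, adjusted p = 0.877). In TPM the 4 Hz group was at 0.504 ± 0.397 and the controls were at 0.392 ± 0.222, a difference within the spread. Timp4 overlaps Syn2 on the opposite strand, and Syn2 was higher by 0.47 on the log2 scale at 4 Hz (edgeR, adjusted p = 0.021).

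Of the 20 tested members, 14 overlap a gene on the opposite strand, and it is not stated whether counting used the strand of the reads. Overlap was taken over whole gene spans, introns included, and overlap of exons was not computed. The paper names a directional library kit. If counting did not use the strand, only reads from bases shared by both transcripts of a pair could not be told apart. Adamts1, Adamts5, Adamts15, and Mmp15 overlap none.

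The frequencies were also compared directly, in libraries that the comparisons above share. Between 4 and 1 Hz, 0 members were changed by edgeR and 0 by DESeq2, with 2 at an unadjusted p under 0.05 in edgeR, and 0% of all genes were changed. Between 10 and 1 Hz, 5 members were changed, against 10.8% of all tested genes. Adamts1 (log2(fold change) −1.14 ± 0.17), Adamts5 (−0.59 ± 0.09), and Timp4 (−1.07 ± 0.31) were lower at 10 Hz, and Adamts4 (0.68 ± 0.13) and Adamts15 (0.96 ± 0.29) were higher. Between 10 and 4 Hz, 6 members were changed, against 21.2% of genes. Adamts1 (−1.44 ± 0.17), Adamts5 (−0.54 ± 0.09), Mmp11 (−0.70 ± 0.09), and Timp4 (−1.34 ± 0.31) were lower at 10 Hz, and Adamts15 (0.82 ± 0.30) and Timp3 (0.59 ± 0.19) were higher. For Adamts1 and Adamts5, all 6 libraries at 10 Hz lay below all those at 1 Hz and all those at 4 Hz. Without the 7 libraries, Timp3 was at 0.33 between 10 and 4 Hz (edgeR, adjusted p = 0.122) and Adamts15 was at 0.75 between them (edgeR, adjusted p = 0.143). Between 10 and 1 Hz, 3 members were then changed. There Timp4 (−1.12, edgeR, adjusted p = 0.111) and Adamts15 (1.22, edgeR, adjusted p = 0.133) no longer passed, although their differences were not smaller. This setting leaves out 4 of the 6 libraries at 1 Hz. The difference of Adamts15 was also lost without 10 Hz replicate 2 (edgeR, adjusted p = 0.050 against 1 Hz and 0.064 against 4 Hz) or 6 (edgeR, adjusted p = 0.076 and 0.1003), and against 4 Hz without 4 Hz replicate 2 or 3 (edgeR, adjusted p = 0.063 and 0.053). That of Adamts5 against 4 Hz fell under the fold threshold without 4 Hz replicate 6 (−0.50) or without 10 Hz replicate 1 (−0.47) or 5 (−0.49). With log2(TPM + 1) values, Adamts5 no longer passed against 1 Hz (−0.29, limma, adjusted p = 0.091) or 4 Hz (−0.17, limma, adjusted p = 0.285), and Mmp11 no longer passed against 4 Hz (−0.23, limma, adjusted p = 0.287).

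By summed level, the inhibitors outweighed the MMPs in all groups. The summed TIMP TPM was 986 ± 76.7 (SD, n = 6) in control tissues, 890 ± 164 at 1 Hz, 843 ± 86.6 at 4 Hz, and 1043 ± 88.0 at 10 Hz, and the summed MMP TPM was 430 ± 24.2, 461 ± 116, 425 ± 73.1, and 485 ± 30.1. The ratio of summed TIMP to summed MMP TPM was 2.30 ± 0.23 in control tissues, 1.97 ± 0.24 at 1 Hz, 2.01 ± 0.22 at 4 Hz, and 2.15 ± 0.16 at 10 Hz, with ranges that overlapped. Mmp2 made up 75.0% ± 0.68 of the summed MMP TPM in control tissues and 76.8% ± 2.22, 76.8% ± 1.56, and 76.0% ± 2.08 at 1, 4, and 10 Hz. The ratio of Mmp2 to Timp2 in TPM was 0.669 ± 0.067 in control tissues, 0.897 ± 0.111 at 1 Hz, 0.825 ± 0.094 at 4 Hz, and 0.797 ± 0.085 at 10 Hz. These sums are transcript levels and say nothing of active enzyme.

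**Figure D5:**
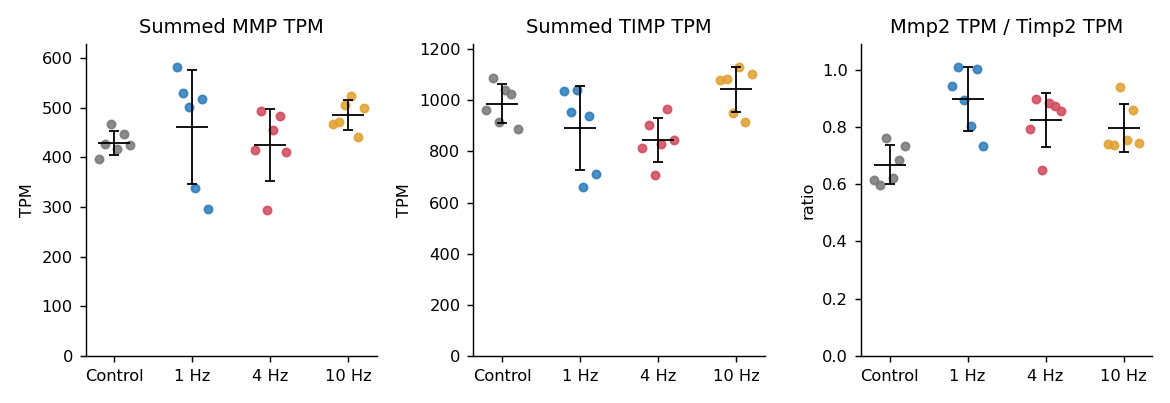
Summed TPM of the MMP genes, summed TPM of the TIMP genes, and the ratio of Mmp2 to Timp2 TPM, with a point for each library and the mean ± SD of 6 libraries as bars, on axes from 0. The sums overlapped between groups, and the 1 Hz group spread most, from 295 to 582 TPM for the MMPs.

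Regulators of these enzymes were described from a list of 48 genes of the plasmin system and other protease regulators, of which 30 were tested. At 1 Hz, 4 were changed (13.3%, against 14.9% of all tested genes), with Hpse (heparanase) and Thbs1 (thrombospondin-1) higher and Furin and Serpinb2 lower. At 4 Hz, 6 were changed (20%, against 25.1%), with Hpse, Bsg, and Reck higher and Furin, Plau, and Serpinb2 lower, and 0 were changed at 10 Hz by edgeR and by DESeq2, with 7 at an unadjusted p under 0.05 in edgeR. The median log2(fold change) of the list was 0.17, 0.23, and 0.11 at 1, 4, and 10 Hz. Furin, the convertase that removes the propeptide of membrane-type MMPs, Mmp11, and ADAMTS enzymes, fell from 79.0 ± 7.97 CPM (SD, n = 6) in control tissues to 54.4 ± 7.74 CPM with 1 Hz and 52.1 ± 6.08 CPM with 4 Hz. Its log2(fold change) was −0.54 (edgeR, adjusted p = 1.7e-04) and −0.60 (edgeR, adjusted p = 3.1e-05), all libraries at both frequencies lay below the controls, and the 10 Hz group was at 85.3 ± 10.9 CPM. Bsg (basigin), an inducer of MMPs, rose at 4 Hz from 2105 ± 149 to 3069 ± 306 CPM (log2(fold change) 0.54, edgeR, adjusted p = 1.1e-05). Reck, a membrane-anchored MMP inhibitor, was at 1.27 ± 0.50 CPM in control tissues and 2.34 ± 0.67 CPM at 4 Hz (log2(fold change) 0.84, edgeR, adjusted p = 0.014). Htra1, a secreted serine protease of proteoglycans, passed the adjusted p at 4 Hz under the fold threshold (log2(fold change) 0.45, edgeR, adjusted p = 6.5e-06), and Hpse was higher by 0.60 (edgeR, adjusted p = 3.3e-06).

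Of 18 membrane ADAM genes and their regulators, 14 were tested, with 4 changed at 1 Hz (28.6%, against 14.9% of all tested genes) and 3 at 4 Hz (21.4%, against 25.1%), while none (0) changed at 10 Hz by edgeR and by DESeq2 (3 at an unadjusted p under 0.05 in edgeR). The median log2(fold change) was −0.19, −0.15, and −0.01. Adam12, a protease known from myoblast fusion, fell from 6.67 ± 2.65 CPM in control tissues to 1.77 ± 0.84 CPM with 1 Hz and 1.49 ± 0.32 CPM with 4 Hz. That is a log2(fold change) of −1.96 ± 0.29 (edgeR, adjusted p = 1.1e-05) and −2.17 ± 0.30 (edgeR, adjusted p = 2.4e-06), with every library below the controls. Adam8 and Adam19 were lower at 1 Hz by −0.51 and −0.52 on the log2 scale. Rhbdf2, which carries the sheddase Adam17 to the cell surface, rose by 0.92 ± 0.15 at 1 Hz (edgeR, adjusted p = 5.4e-05) and 1.24 ± 0.15 at 4 Hz (edgeR, adjusted p = 5.3e-07), and Adam15 rose by 0.51 at 4 Hz (edgeR, adjusted p = 7.6e-06).

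Of 45 matrix substrates and ADAMTS-like genes, 32 were tested, with 3 changed at 1 Hz (9.38%, against 14.9% of all tested genes) and 4 at 4 Hz (12.5%, against 25.1%), while none (0) changed at 10 Hz by edgeR and by DESeq2 (4 at an unadjusted p under 0.05 in edgeR). Col1a1, Adamtsl2, and Fmod (fibromodulin) were lower at both 1 and 4 Hz, and Adamtsl1 was higher at 4 Hz, at 13.6 ± 1.66 against 7.64 ± 1.69 CPM (log2(fold change) 0.83 ± 0.16, edgeR, adjusted p = 1.4e-04). The median log2(fold change) of this list was 0.06, 0.08, and 0.13. Col1a1 was at 96.8 ± 33.1 CPM in control tissues and 59.5 ± 14.6 CPM at 4 Hz (log2(fold change) −0.71 ± 0.23, edgeR, adjusted p = 0.014). Vcan, which encodes the versican that Adamts1, Adamts4, Adamts5, and Adamts15 can cut, was at 89.3 ± 12.5 CPM in control tissues, 124 ± 36.5 CPM at 1 Hz, and 117 ± 10.9 CPM at 4 Hz. This was a log2(fold change) of 0.47 ± 0.14 (edgeR, adjusted p = 0.013) and 0.39 ± 0.14 (edgeR, adjusted p = 0.026), under the fold threshold. Adamtsl4, an ADAMTS-like protein of microfibrils, also passed the adjusted p at 4 Hz, with 0.41 on the log2 scale.

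Markers of other cell types were set beside these changes. The summed CPM of 10 differentiated muscle markers was 12123 to 15281 in control tissues, 10269 to 18243 at 1 Hz, 14029 to 17326 at 4 Hz, and 11434 to 14192 at 10 Hz. The 8 fibroblast markers, of which 6 were tested, summed to 739 to 1178 CPM in control tissues, 653 to 1034 CPM at 1 Hz, 731 to 1019 CPM at 4 Hz, and 861 to 1240 CPM at 10 Hz, so the groups overlapped. Of the 6 tested, 2 were lower and 0 higher at each of 1 and 4 Hz (33.3%, against 14.9% and 25.1% of all tested genes). The 6 myoblast markers summed to 34.3 to 54.6 CPM in control tissues, 51.4 to 80.0 CPM at 1 Hz, 47.7 to 58.8 CPM at 4 Hz, and 43.3 to 65.7 CPM at 10 Hz. They moved in both directions. At 1 Hz 2 were higher and 1 lower (50%, against 14.9% of all tested genes). At 4 Hz 2 were higher and 3 lower (83.3%, against 25.1%), with a median log2(fold change) of −0.52. The 5 fat cell markers, nearly all of it Pparg, summed to 13.1 to 22.5 CPM in control tissues, 23.4 to 33.4 CPM at 1 Hz, 22.3 to 34.9 CPM at 4 Hz, and 14.97 to 26.8 CPM at 10 Hz. The part of these marker differences in the changes of the members was not tested. Macrophage markers, of which only 1 of 6 passed the filter on low counts, summed to 39.9 to 74.0 CPM over all libraries. Endothelial markers, of which 0 of 5 passed it, summed to 0 to 0.667 CPM. In each of the fibroblast, macrophage, and endothelial lists, 1 marker had no count in any library.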

How the data were processed

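The authors sequenced 24 libraries of C2C12 muscle as 50-base read pairs after poly(A) selection, with low-input samples ribodepleted. Reads were processed with nf-core/rnaseq and Ensembl GRCm39. The authors deposited a salmon estimated count per gene, not normalized, and a TPM per gene, scaled to transcript length and to 1000000 per library. Of the non-zero estimated counts, 19.0% were off a whole number by more than 0.001. BWA is also named in the submitters' notes, and its part in these values is not stated.

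Counts were rounded, filtered with filterByExpr (minimum count 10, minimum total 15), scaled by TMM, and fitted for all 24 libraries together by the quasi-likelihood test of edgeR 4.0.16 in R 4.3.3, with Benjamini-Hochberg adjustment over 13315 genes. The study's own tool, DESeq2 1.42.0, and limma 3.58.1 on log2(TPM + 1) and log2(TPM + 0.1) were alternatives, together with other size factors, filters, groups in the fit, a replicate block, and leaving out each library. Scripts were tested on simulated data. Sequences and positions were taken from GRCm39 with GENCODE M39. The biological coefficient of variation was 14.8%.

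Fold changes are given for members changed against control and for Mmp2, Mmp14, and the TIMPs. From each list, the 3 genes with the smallest p are named, besides those that are counted or act on members. The members, lists, and tests were chosen with earlier results of these data known.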

Additional observations from a re-analysis of the deposited data

Results flagged for a closer look

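The response of several members differed between 10 Hz and the lower frequencies, by the direct test of that difference in the edgeR fit. Against 1 Hz, the log2(fold change) at 10 Hz was −1.14 for Adamts1 (edgeR, adjusted p = 3.1e-05), −0.59 for Adamts5 (edgeR, adjusted p = 5.3e-05), −1.07 for Timp4 (edgeR, adjusted p = 0.013), 0.68 for Adamts4 (edgeR, adjusted p = 4.4e-04), and 0.96 for Adamts15 (edgeR, adjusted p = 0.018). Against 4 Hz, it was −1.44 for Adamts1 (edgeR, adjusted p = 6.8e-07), −0.54 for Adamts5 (edgeR, adjusted p = 6.2e-05), −0.70 for Mmp11 (edgeR, adjusted p = 2.7e-06), −1.34 for Timp4 (edgeR, adjusted p = 0.0013), 0.82 for Adamts15 (edgeR, adjusted p = 0.027), and 0.59 for Timp3 (edgeR, adjusted p = 0.016). The differences of Adamts5 from 1 and 4 Hz and of Mmp11 from 4 Hz did not pass with log2(TPM + 1) values (limma, adjusted p = 0.091, 0.285, and 0.287).

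A single library stood far from the others of its group. Adamts5 in 1 Hz replicate 6 was at 22.1 CPM, with the next library at 24.7 CPM, and it still lay above every control. Chance alone flags around 1 in 20 groups, and 1 of the 48 groups looked at was flagged.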

How the results depend on the processing

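The biological coefficient of variation and 6 libraries per group limit what can be told from 0, most of all for Adamts15 and Timp4, which had few counts. Timp4 passed the filter on low counts only, and Adamts15 mostly, through the groups where they were high. Their calls, also those against 10 Hz, are not independent of that filter. The values gave no sign that the replicate numbers pair the tissues, which does not show that they were unpaired. Of 36 same-numbered pairs, 3 had a correlation of their deviations over 0.1, and 0 libraries matched best with their own number. With a replicate block, 6 members were changed at 1 Hz, 5 at 4 Hz, and 0 at 10 Hz, and the block changed no call of a named member or count by over 1.5 times.

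Without the threshold on fold change, 10 members were changed at 1 Hz, 13 at 4 Hz, 8 between 10 and 1 Hz, and 10 between 10 and 4 Hz, and for the lists 9 and 17 (plasmin system), 10 and 8 (membrane ADAM), and 10 and 11 (matrix substrates) at 1 and 4 Hz. The limma fits tested 18 members, and Timp4 and Adamts15 were not among them. With limma on log2(TPM + 1), 3 members were changed at 1 Hz, 3 at 4 Hz, and 3 between 10 and 1 Hz, with 2 and 3 plasmin system genes at 1 and 4 Hz and 6 membrane ADAM genes at 4 Hz. With log2(TPM + 0.1), these were 3 members between 10 and 1 Hz, 2 plasmin system genes at 1 Hz, and 7 and 8 membrane ADAM genes. The strict filter, which tests fewer genes, gave 3 members at 4 Hz, 3 between 10 and 1 Hz, and 2 matrix substrates at 4 Hz. With only the 2 groups compared in the fit, 3 members were changed between 10 and 1 Hz and 1 matrix substrate at 1 Hz. Upper-quartile factors gave 2 membrane ADAM genes at 1 Hz. Leaving out 1 library at a time gave 2 to 4 membrane ADAM genes at 1 Hz, with 2 without control replicate 5 or 1 Hz replicate 3. Leaving out the 7 libraries with the most RNA lacking a poly(A) tail, chosen after seeing the data, gave 5 members at 1 Hz, 4 at 4 Hz, and 3 between 10 and 1 Hz. Adamts1, Adamts5, and Mmp11 at 1 and 4 Hz, Mmp15 at 1 Hz, and Timp4 at 4 Hz were still changed. At 1 Hz, Adamts4 and Adamts15 were lost, so the count of 5 includes a member that was not changed in the main fit. The lists were not looked at in this setting. At 0.1 TPM in 6 libraries, 31 members counted as expressed. The cause of these shifts was not tested, apart from the fewer genes or samples where stated.

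Over all settings, 916 values of named members kept their direction and their call by both thresholds together. Another 47 no longer passed both, 8 newly passed both, and 11 changed sign. A value that crossed the adjusted p alone counted as kept. An example is Timp1 at 1 Hz, under the fold threshold, with an adjusted p of 0.0098 (edgeR), and of 0.692 (edgeR) without the 7 libraries. The sign turned for small differences that had not passed both thresholds. Mmp2 at 4 Hz was at −0.0017 and −0.0018 on the 2 TPM scales, and Mmp14 at 1 Hz at −0.170 and −0.174. Leaving out 1 library at a time, Mmp14 at 1 Hz ranged from −0.0213 to 0.0825, Adamts15 at 10 Hz from −0.111 to 0.221, and Timp3 at 1 Hz from −0.182 to 0.0119. Timp3 at 1 Hz was 0.183 without the 7 libraries.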
